A study of Bos indicus x Bos taurus with 78 samples.

Results

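The miR-15/16 family and its neighbour miR-3613a made up 7 of the 1030 rows of the miRNA count matrix. The rows were chosen by name as bta-miR-16a, bta-miR-16b, bta-miR-195, bta-miR-15a, bta-miR-497, bta-miR-15b and bta-miR-3613a, written below without the bovine prefix, on results of these data in which miR-3613a and miR-16a stood lower in dark-cutting than in normal steers. The differences between dark-cutting and normal steers are therefore given as a description, without a test. Tests were kept to steers of 1 phenotype alone, apart from an interaction that asks whether the difference between phenotypes depends on the number range of the steers.

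MicroRNAs are short RNAs that pair with messenger RNAs, mainly through the bases near their 5′ end, and lower their translation and stability. The miR-15/16 family shares that stretch of bases and is known, in human and mouse cells, for lowering cyclins and other cell cycle proteins and the survival protein BCL2. In humans miR-15a and miR-15b are each transcribed together with a copy of miR-16, miR-195 is transcribed together with miR-497, and the miR-3613 hairpin lies near that of miR-15a without belonging to the family. In mice miR-195 and miR-497 are known for holding muscle stem cells out of the cell cycle after birth.

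Small RNA was sequenced from biopsies of the Longissimus lumborum, a loin muscle, of 78 male steers of the cross Bos indicus x Bos taurus. Dark cutting is a beef quality fault in which the meat stays dark and keeps a high pH, and animals with little glycogen left in their muscle are known to be prone to it. The labels gave a degree of dark cutting to 25 steers, namely 1/4 in 8 steers, 1/3 in 9, 1/2 in 3, 2/3 in 4 and 3/4 in 1, and called the other 53 steers normal. They give no treatment, age or breed share. Each biopsy has a title number of its own and is taken here as 1 steer, which the labels do not spell out, so p-values measure the spread between these biopsies. The libraries held 1427817 to 4535675 counts, with a median of 3209320. The 6 listed muscle miRNAs, which include miR-1 and miR-133a, summed to 836116 to 899771 CPM (counts scaled to a common library total) in dark-cutting steers and to 762000 to 902058 CPM in normal steers, so muscle miRNAs filled most of every library. The 7 members together held 0.149% ± 0.0305 of the counts in dark-cutting steers and 0.152% ± 0.0427 in normal steers (SD, n = 25 and 53).

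Every member had counts in every library and passed each filter on low counts, the lowest being the 45 counts of miR-15b in a normal steer. By mean CPM over the 78 steers, miR-16a ranked 33 of 1030 rows with 642 CPM, miR-16b ranked 49 with 289.5 CPM and miR-195 ranked 54 with 252 CPM. Next came miR-15a at rank 69 with 134 CPM, miR-3613a at rank 78 with 117 CPM, miR-497 at rank 116 with 40.8 CPM and miR-15b at rank 120 with 36.6 CPM. Mature miRNAs are of nearly equal length, so CPM can be set side by side, but adapters join some miRNAs more readily than others, which can move such an order.

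In the 53 normal steers miR-16a averaged 9.33 ± 0.33 log2 CPM, miR-16b 8.17 ± 0.25, miR-195 7.93 ± 0.35 and miR-15a 6.97 ± 0.34 (SD, n = 53; scaled by trimmed mean of M-values, TMM, with a prior count of 2). At the low end miR-3613a averaged 6.93 ± 0.49, miR-497 5.22 ± 0.45 and miR-15b 5.15 ± 0.29 log2 CPM in the same steers. Of the 6 neighbouring pairs in this order, 4 had a mean difference apart from 0 in a two-sided paired permutation test (adjusted p = 1.5e-05 each, from the smallest p that 100000 resamples can give, 1e-05). The smallest of these, miR-16b minus miR-195, was 0.24 ± 0.28 (SD), positive in 45 of 53 normal steers. miR-16a exceeded miR-16b, and miR-195 exceeded miR-15a, in 53 of 53 normal steers. miR-15a minus miR-3613a was 0.47 ± 0.60 on the log2 scale in dark-cutting steers, positive in 20 of 25, a value left without a test because it rests on the lower miR-3613a by which the rows were chosen. In normal steers the same difference was 0.05 ± 0.55, positive in 31 of 53 (permutation adjusted p = 0.538). miR-497 minus miR-15b was 0.07 ± 0.54 in normal steers, positive in 32 of 53 (permutation adjusted p = 0.427), so neither of these orders was told apart there.

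**Figure D1:**
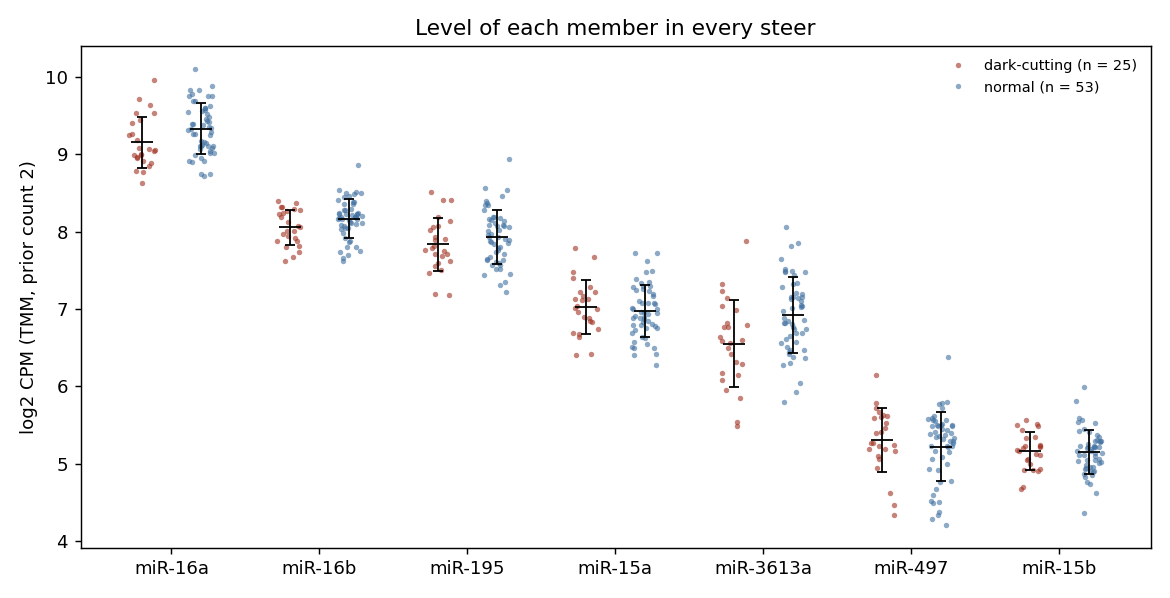
Level of each member in log2 CPM (TMM, prior count 2) in every steer, with 25 dark-cutting steers left of 53 normal steers and bars for the mean and SD. The clouds of both phenotypes overlap for all 7 members, and miR-3613a has the widest spread, with a mean of 6.55 in dark-cutting and 6.93 in normal steers.

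miR-3613a was the member whose level set dark-cutting and normal steers farthest apart. In the 25 dark-cutting steers it ran over 5.49, 6.58 and 7.88 log2 CPM as lowest, median and highest, against 5.80, 6.88 and 8.06 in the 53 normal steers. In counts these libraries held 166 to 745 reads of miR-3613a in dark-cutting steers and 141 to 849 in normal steers. The ranges overlapped almost wholly, but 19 of 25 dark-cutting steers lay below the median of the normal steers and 2 lay below every normal steer. The edgeR log2 fold change, dark-cutting over normal, was -0.34 ± 0.12 (SE), which is a fold of 0.790 with a 95% interval of 0.667 to 0.935. Because the rows were chosen on this difference, the interval describes its error and does not serve as a test.

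miR-16a, the most abundant member, came next. It ran over 8.63, 9.06 and 9.96 log2 CPM as lowest, median and highest in dark-cutting steers, against 8.72, 9.33 and 10.11 in normal steers. Of the dark-cutting steers, 18 of 25 lay below the normal median and 1 below every normal steer. The log2 fold change was -0.17 ± 0.08, a fold of 0.892 with a 95% interval of 0.802 to 0.992, which is likewise no test. Reads can fit both miR-16a and miR-16b, and no source used here tells how such reads were assigned. With both rows summed, in an alternative chosen after seeing the data, the log2 fold change was -0.15 ± 0.07.

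The remaining members lay closer together in both phenotypes. miR-16b averaged 8.06 ± 0.23 log2 CPM in dark-cutting steers and 8.17 ± 0.25 in normal steers, and its log2 fold change was -0.11 ± 0.06. miR-195 averaged 7.84 ± 0.34 in dark-cutting steers and 7.93 ± 0.35 in normal steers, and its log2 fold change was -0.09 ± 0.08. Both had 16 of 25 dark-cutting steers below the normal median. miR-15a, on the other side of 0, averaged 7.03 ± 0.35 log2 CPM in dark-cutting steers and 6.97 ± 0.34 in normal steers, a log2 fold change of 0.06 ± 0.08. For miR-497 the log2 fold change was 0.08 ± 0.10, and for miR-15b it was 0.0027 ± 0.0722. Across the 7 members, 4 log2 fold changes were below 0, with a median of -0.09, beside 54% below 0 and a median of -0.01 over the 252 miRNAs compared. Among those 252 miRNAs edgeR called none at an adjusted p under 0.05 (0%), with 23 at an unadjusted p under 0.05. As a description only, the 95% interval of every member in this fit lay within 1.5-fold of no difference in either direction. For miR-3613a it did so only barely, with a lower limit of 0.667. Its log2 fold change was -0.35 ± 0.12 with the number range as covariate, and the bound was not worked out there. The authors' deposited table, from DESeq2, gives a log2 fold change of -0.34 ± 0.12 (SE) for miR-3613a and of -0.16 ± 0.08 for miR-16a.

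Scaling bears on these values because miR-1 alone fills most of each library. Scaled by total count in place of TMM, the median log2 fold change of all miRNAs shifted by 0.11 to 0.10, and 4 of 7 members were still below 0. Of these, miR-3613a had -0.26 ± 0.11 and miR-16a -0.08 ± 0.09. Close to 0 were miR-16b, at -0.01 ± 0.09, and miR-195, at -0.008 ± 0.11. Above 0 lay miR-15a at 0.15, miR-15b at 0.11 and miR-497 at 0.16. The title numbers of the steers leave a gap below 600, and no source used here tells what they stand for. Within numbers of 600 or above (17 dark-cutting, 35 normal) miR-3613a had a log2 fold change of -0.30 ± 0.15. Within numbers below 600 (8 dark-cutting, 18 normal) it was -0.43 ± 0.16, and all 8 dark-cutting steers lay below the median of all normal steers. So did 11 of the 18 normal steers in that range. Their own median, 6.8214 log2 CPM, was just under the 6.8239 of replicate 2 of degree 1/4. For miR-16a the same values were -0.18 and -0.09, and with the number range as a covariate over all steers its log2 fold change was -0.17, as without it. miR-195 had -0.15 at 600 or above and 0.07 below 600, so its direction did not hold in both. The interaction of phenotype with number range, which uses steers of both phenotypes, called no member in edgeR, with adjusted p from 0.897 to 0.978.

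Ratios of reads within a steer do not depend on scaling. Reads of miR-16a per read of miR-15a, as a log2 ratio, averaged 2.14 ± 0.27 in dark-cutting steers and 2.37 ± 0.29 in normal steers, and 18 of 25 dark-cutting steers lay below the normal median. Below 600 all 8 dark-cutting steers lay below that median, as did 12 of 18 normal steers. For miR-195 over miR-497 the log2 ratio averaged 2.55 ± 0.25 in dark-cutting steers and 2.73 ± 0.30 in normal steers. For miR-3613a over miR-15a it averaged -0.48 ± 0.60 in dark-cutting steers and -0.05 ± 0.56 in normal steers. For miR-3613a over miR-16a the gap was smaller, at -2.61 ± 0.45 in dark-cutting steers and -2.42 ± 0.43 in normal steers. Of the 25 dark-cutting steers, 17 lay below the normal median of the ratio to miR-15a and 15 below that to miR-16a. The log2 ratio of miR-16a to miR-16b averaged 1.10 ± 0.19 in dark-cutting steers and 1.17 ± 0.20 in normal steers, and that of miR-15a to miR-15b averaged 1.89 ± 0.43 in dark-cutting steers and 1.84 ± 0.41 in normal steers. Each of these ratios overlapped between the phenotypes over most of its range. They rest on the same steers as the fold changes and are given without a test.

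The degrees were set against the same 53 normal steers, so their values share those controls. For miR-3613a the log2 fold change over normal was -0.27 ± 0.20 at degree 1/4, -0.36 ± 0.19 at 1/3, -0.35 ± 0.31 at 1/2 and -0.34 ± 0.27 at 2/3 (edgeR, SE). Single steers weighed on the small degrees: the value at 1/2 was -0.13 without replicate 1 and -0.55 without replicate 3, and at 2/3 it was -0.16, -0.54 and -0.22 without replicates 1, 2 and 3 in turn. The 8 steers of degree 1/4 ran over 5.49, 6.50 and 7.88 log2 CPM of miR-3613a as lowest, median and highest, and the 9 of degree 1/3 over 5.54, 6.63 and 7.32. The 3 steers of degree 1/2 had 6.08, 6.76 and 6.98, the 4 of degree 2/3 had 6.29, 7.15, 6.50 and 6.60, and the single steer of degree 3/4 had 5.85. Each degree overlapped the normal steers. The 3/4 steer, with 260 reads of miR-3613a, had only 1 normal steer below it.

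For miR-16a the log2 fold change over normal was 0.0097 ± 0.12 at degree 1/4, -0.25 ± 0.12 at 1/3, -0.41 ± 0.20 at 1/2 and -0.19 ± 0.17 at 2/3. The value at 2/3 was -0.08, -0.33 and -0.06 without replicates 1, 2 and 3 in turn. The 8 steers of degree 1/4 spread widely, over 8.63, 9.43 and 9.96 log2 CPM as lowest, median and highest, while 8 of 9 steers of degree 1/3 lay below the normal median. The steers of degree 1/2 had 9.09, 8.997 and 8.79 log2 CPM of miR-16a, those of 2/3 had 9.07, 9.53, 8.99 and 9.06, and the steer of 3/4 had 9.05. All 3 steers of degree 1/2 and 3 of 4 of degree 2/3 lay below the normal median. For miR-195 all 3 steers of degree 1/2, at 7.72, 7.90 and 7.60 log2 CPM, lay below the normal median of 7.93. Its steers of degree 2/3 had 7.77, 8.19, 7.62 and 7.79, with 1 above that median.

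Counted over members, 4 of 7 were below normal at degree 1/4, 5 at 1/3, 5 at 1/2 and 6 at 2/3. Over all 272 miRNAs compared the shares below normal were 52.2%, 53.3%, 50.4% and 66.9% in the same order of degrees. The count at degree 2/3 rested on 1 steer in part: without its replicate 3 it was 3 of 7. Scaled by total count, 3 members were below normal at degree 1/3 and 3 at 1/2. Under that scaling the median log2 fold change of all miRNAs was 0.13 at 1/3 and 0.17 at 1/2. At each of these degrees 5 of 7 members lay below that median. edgeR called 0% of the 272 miRNAs at 1/4, 1/3 and 1/2 and 0.368%, which is 1 miRNA outside the family, at 2/3.

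**Figure D2:**
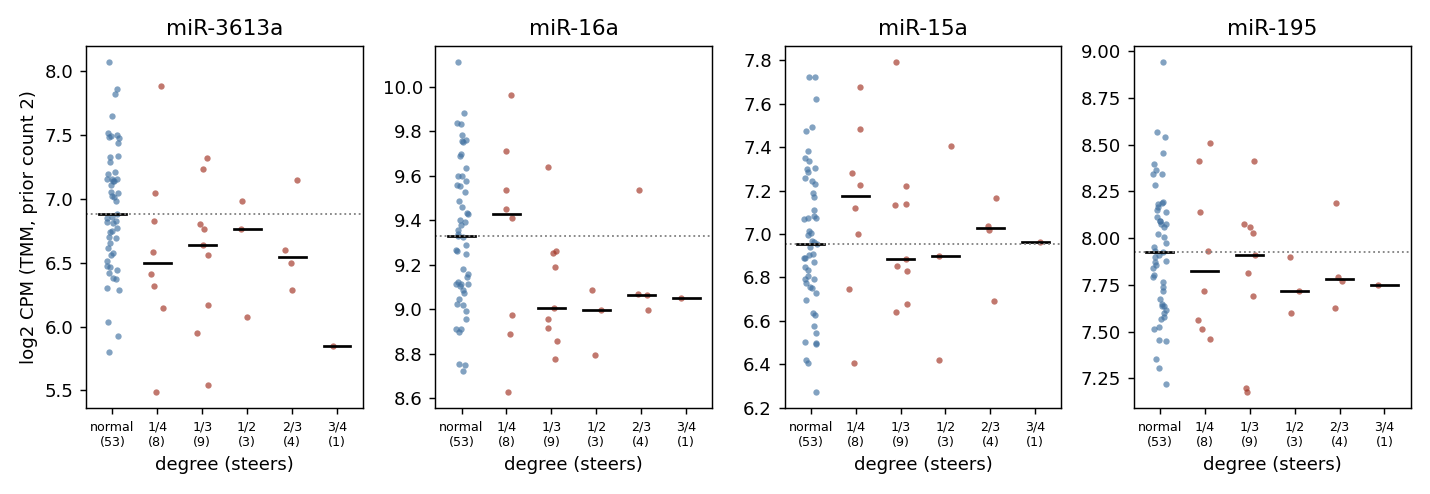
Level in log2 CPM (TMM, prior count 2) of miR-3613a, miR-16a, miR-15a and miR-195 in each steer, from normal steers through the degrees of dark cutting. Short lines mark group medians and the dotted line marks the normal median, 6.88 for miR-3613a, which the median of every degree lies below.

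Among dark-cutting steers alone, no member passed the test between degrees. The 8 steers of degree 1/2 or more were set against the 17 of degree 1/3 or less, a comparison that uses no normal steer. miR-16a averaged 9.07 ± 0.21 log2 CPM in the higher and 9.20 ± 0.37 in the lower degrees, with a log2 fold change of -0.18 ± 0.14 and a 95% interval of -0.45 to 0.10. miR-3613a averaged 6.53 ± 0.44 log2 CPM in the higher and 6.57 ± 0.62 in the lower degrees, with -0.12 ± 0.23 and an interval of -0.58 to 0.34. miR-15a gave -0.15 ± 0.15, miR-497 -0.14 ± 0.17, miR-195 -0.12 ± 0.14, miR-16b -0.03 ± 0.11 and miR-15b 0.11 ± 0.13. edgeR called 0 of 7 members, and 0% of the 251 miRNAs tested. The smallest adjusted p of a member was 0.989. Without adjustment 6 miRNAs had a p under 0.05, none of them a member, and DESeq2 called 0 as well. Of the 7 log2 fold changes, 6 were below 0, beside 57% over all miRNAs tested. The 95% interval of each member stayed within 1.5-fold in either direction, which bounds the differences but does not show the degrees to be alike.

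Taking the labelled fraction as a number gave the same count. The slope was below 0 for 6 of 7 members, beside 61% over all 251 miRNAs. It was -0.54 ± 0.66 log2 units per whole unit of degree for miR-3613a and -0.54 ± 0.38 for miR-16a. edgeR called 0 members (0% of the miRNAs tested, 9 at an unadjusted p under 0.05, smallest adjusted p of a member 0.998), and DESeq2 called 0.

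Among normal steers no member passed the test between title number ranges, and 6 of 7 were higher in the steers numbered 600 or above. In the 35 normal steers numbered 600 or above, miR-16a averaged 9.41 ± 0.30 log2 CPM, against 9.19 ± 0.33 in the 18 numbered below 600. The log2 fold change was 0.21 ± 0.09 (edgeR p = 0.0239, adjusted p = 0.281). miR-195 averaged 8.01 ± 0.33 in the steers at 600 or above and 7.79 ± 0.35 in those below, a log2 fold change of 0.21 ± 0.10 (edgeR p = 0.0365, adjusted p = 0.314). miR-3613a gave 0.25 ± 0.13, miR-497 0.20 ± 0.13, miR-16b 0.09 ± 0.07, miR-15a 0.04 ± 0.10 and miR-15b -0.04 ± 0.09. edgeR called 0 of 7 members and 0% of the 241 miRNAs tested, with 32 at an unadjusted p under 0.05, and DESeq2 called 0. The share above 0 over all miRNAs tested was 53.1%. Over the marker lists of other cells the median log2 fold change between number ranges was 0.41 for white blood cells (2 of 8 miRNAs below 0), 0.35 for erythroid cells (2 of 4 below 0), 0.27 for fibroblasts (0 of 4), 0.10 for vessels (1 of 4) and -0.04 for muscle (4 of 6), with none called. In CPM per total count the erythroid sum had a median of 629 in the steers at 600 or above and 682 in those below. Their part in the members' values was not tested.

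**Figure D3:**
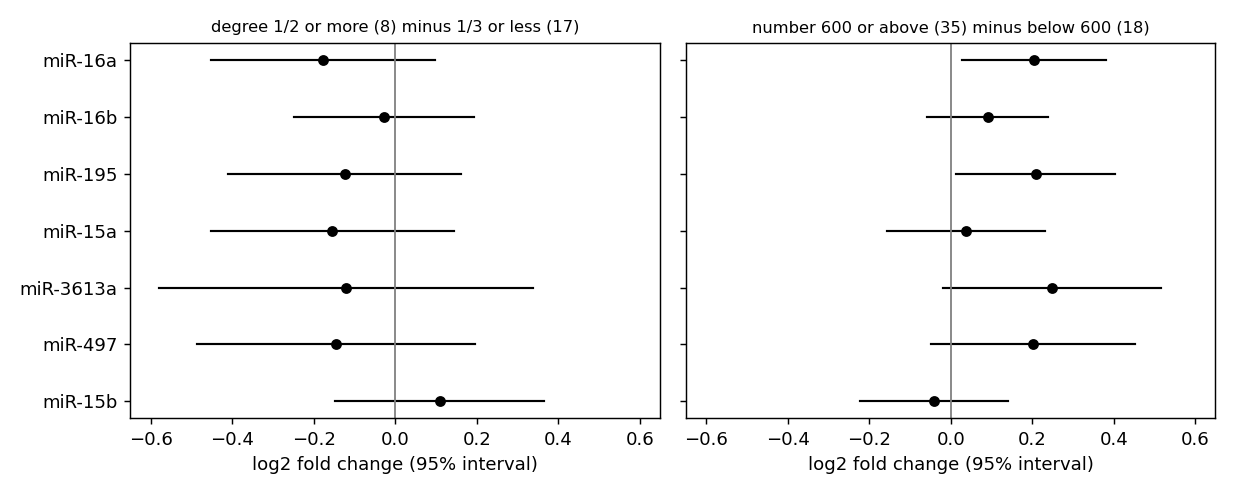
Log2 fold change with its 95% interval (edgeR) for each member, in dark-cutting steers of degree 1/2 or more over 1/3 or less (left) and in normal steers numbered 600 or above over below 600 (right). All intervals on the left hold 0, and on the right those of miR-16a and miR-195 lie above 0, at 0.21 each, before adjustment.

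From steer to steer, 5 of the 6 family members went up and down together and miR-15b did not. Over the 53 normal steers, 11 of the 21 pairs of members had a Pearson r past an adjusted p of 0.05 in permutation tests adjusted over the 21 pairs. An r over 0.5 was found in 10 of the 21, beside 1.84% of all 36856 pairs of miRNAs. Of the 11 pairs, 10 were all the pairs among miR-16a, miR-16b, miR-195, miR-15a and miR-497, and the last was miR-16a with miR-3613a. The highest was miR-16a with miR-16b (r = 0.778, rho = 0.765, permutation adjusted p = 2.62e-05 and 3e-05, r = 0.770 without the 2 steers farthest from the median). miR-16a with miR-195 had r = 0.766 and rho = 0.769, with r = 0.726 without the 2 farthest steers. miR-195 with miR-497, which share a transcript in humans, had r = 0.764 and rho = 0.739, with r = 0.706 without the 2 farthest. The last 2 pairs had the same permutation adjusted p as the first. miR-15a had r = 0.654 with miR-497, 0.646 with miR-195 and 0.612 with miR-16a, and the lowest of the 10 was its r of 0.456 with miR-16b. Ranked by r among all 271 other miRNAs, partners in these 10 pairs stood from 1 (such as miR-195 for miR-497) to 31 (miR-15a for miR-16b). Some non-members thus followed these members as closely or more closely.

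miR-15b had r from -0.22 to 0.30 with the other members, and none passed the adjusted threshold. Its highest, with miR-16b, was r = 0.299 and rho = 0.157 (permutation adjusted p = 0.053 and 0.358), and r = 0.103 without the 2 farthest steers. miR-3613a was correlated with miR-16a (r = 0.515, rho = 0.567, permutation adjusted p = 0.00021 and 5.25e-05, r = 0.504 without the 2 farthest). With its human neighbour miR-15a it had r = 0.143 and rho = 0.153 (permutation adjusted p = 0.406 and 0.358). Its r with miR-16b, miR-195 and miR-497 was 0.128, 0.159 and 0.05. The high r of miR-16a with miR-16b can hold reads that fit both rows, and that share was not tested.

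**Figure D4:**
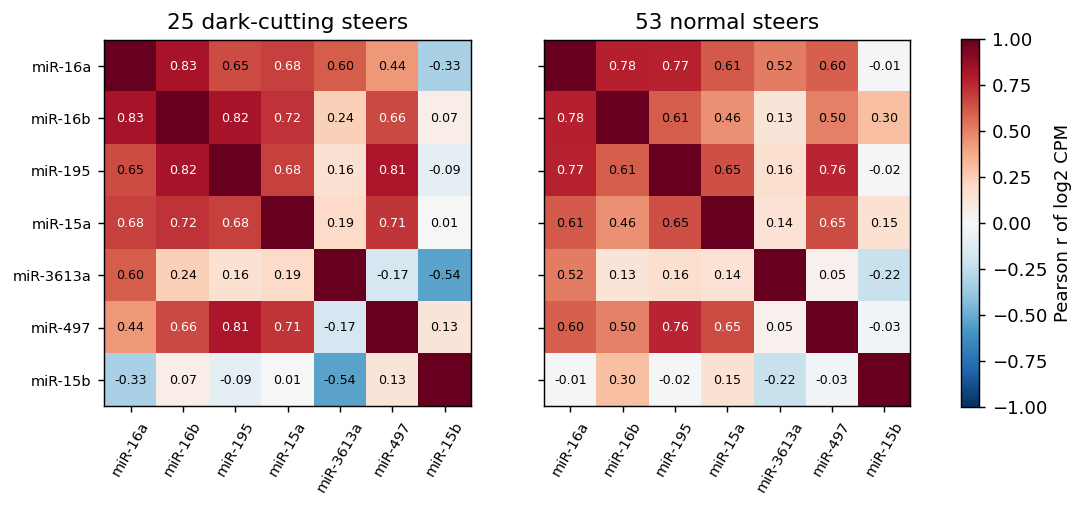
Pearson r of log2 CPM (TMM) between members over 25 dark-cutting steers (left) and 53 normal steers (right), colour scale from -1 to 1. miR-16a, miR-16b, miR-195, miR-15a and miR-497 form a block of positive r in both panels, from 0.44 to 0.83 in dark-cutting and 0.46 to 0.78 in normal steers, outside which lie miR-15b and, apart from its r with miR-16a, miR-3613a.

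The block was positive throughout in both phenotypes and both number ranges, though r of miR-16b with miR-15a (0.286) and with miR-497 (0.265) did not pass in normal steers at 600 or above. In the 25 dark-cutting steers 12 of 21 pairs passed, with r = 0.828 for miR-16a with miR-16b, 0.810 for miR-195 with miR-497 and 0.602 for miR-16a with miR-3613a. There miR-15b with miR-3613a had r = -0.535, against -0.222 in normal steers, and that difference was not tested. In normal steers 9 pairs passed at 600 or above and 12 below 600, with r of miR-195 with miR-497 at 0.691 and 0.832 and of miR-16a with miR-3613a at 0.472 and 0.540. The share of all pairs of miRNAs that would pass was not worked out in any of these sets of steers. The correlations also depended on scaling. TMM leaves a pair of miRNAs with a median r of 0.0018 over all pairs of 272 miRNAs, while scaling by total count leaves 0.270. Scaled by total count, 19 of 21 member pairs passed and 15 had r over 0.5, beside 14.03% of all pairs of miRNAs, and miR-15b had r from 0.485 to 0.714 with the other 5 family members. The separate place of miR-15b was thus seen under TMM over all normal steers and not under total count scaling. Under TMM it did not hold in full in the normal steers below 600, where miR-15b with miR-15a had r = 0.533 (permutation adjusted p = 0.04). miR-3613a with miR-16a had r = 0.514 under total count scaling, close to its value under TMM.

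**Figure D5:**
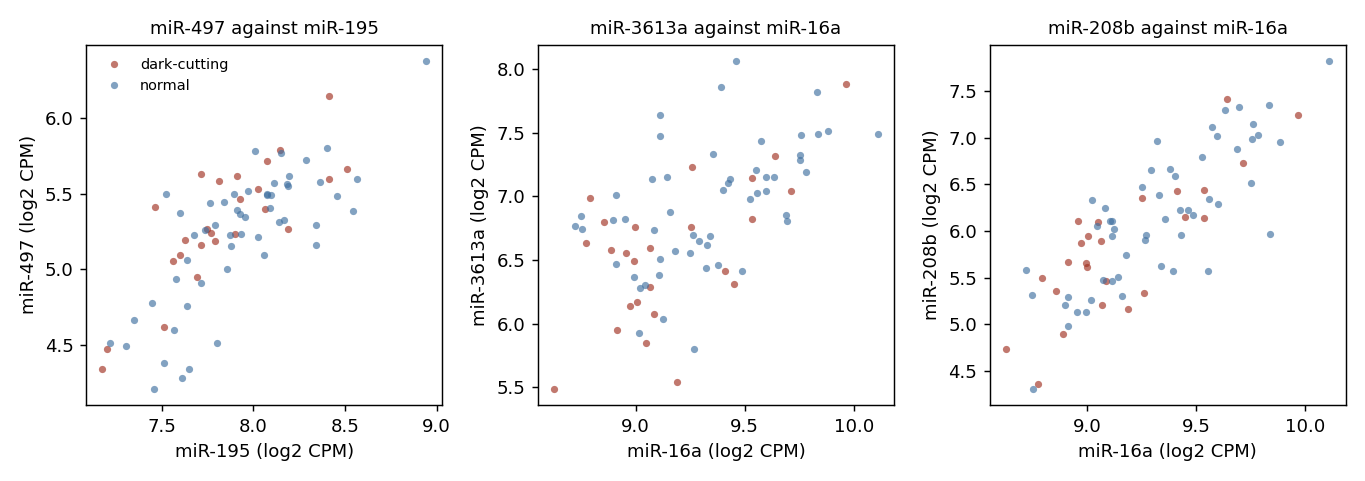
Log2 CPM (TMM) in each of 25 dark-cutting and 53 normal steers of miR-497 against miR-195, miR-3613a against miR-16a, and miR-208b against miR-16a. Over normal steers r is 0.764, 0.515 and 0.804, and dark-cutting steers lie within the same clouds.

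The 3 non-member miRNAs most like each member, by Pearson r over the 53 normal steers among 265 miRNAs, are given as a description. For miR-16a they were miR-208b (r = 0.804), a miRNA made from a slow myosin gene, miR-374a (0.768) and miR-146a (0.750), an inflammation miRNA. The r of miR-16a with miR-208b was 0.820 in dark-cutting steers, beside the 0.804 in normal steers. miR-16b was most like miR-6119-5p (0.800), miR-208b (0.743) and the myeloid miR-223, whose r with it was -0.02 in dark-cutting steers and 0.724 in normal steers. miR-195 was most like miR-335, miR-374a and miR-27a-3p, with r from 0.721 to 0.747, and miR-497 most like miR-27a-3p (0.758), miR-22-3p (0.607) and miR-374a (0.591). miR-15a was most like miR-29c (0.687), miR-22-3p (0.671) and miR-331-3p (0.622). miR-3613a was most like miR-7 (0.666 in dark-cutting and 0.549 in normal steers), miR-30a-5p (0.410) and the muscle miRNA miR-1 (0.407). The r of miR-3613a with miR-1 was -0.28 under total count scaling, so its direction rests on TMM.

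The highest r of miR-15b with any non-member was 0.339, with miR-451, the erythroid miRNA, at a rho of 0.058. The r was 0.08 without normal replicate 19, whose library held 8593 reads of miR-451 (11.36 log2 CPM) and had the highest level of all normal steers for miR-15b, 5.99 log2 CPM, and for miR-16b, 8.87. Without this steer, 11 of 21 member pairs passed, and each neighbour in the order of levels kept its side of the threshold. Next most like miR-15b were miR-191 (r = 0.335, rho = 0.340) and miR-154b (r = 0.318, rho = 0.322). Their r with miR-15b was 0.368 and 0.307 without normal replicate 19, and 0.528 and 0.169 in dark-cutting steers.

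In bulk muscle, fewer cells of a type and less RNA per cell cannot be told apart, so the members were set beside markers of other cells, in 28 relations, of which 10 passed by Pearson r and 15 by Spearman rho. The summed level of the 8 white blood cell miRNAs, as log2 on the TMM scale, had r = 0.756 and rho = 0.724 with miR-16a over normal steers (permutation adjusted p = 9.33e-05 and 7e-05, r = 0.7096 without the 2 farthest). The r with the same list was 0.669 for miR-16b, 0.658 for miR-195 and 0.486 for miR-497, all past the adjusted threshold. For miR-15a r was 0.282 and rho 0.355 (permutation adjusted p = 0.0789 and 0.0205), so only the rank relation passed, and for miR-3613a r was 0.317 and rho 0.245 (permutation adjusted p = 0.0532 and 0.127). The 4 vessel miRNAs (miR-126-3p, miR-126-5p, miR-143 and miR-145) had r = 0.572 with miR-16a, 0.464 with miR-195, 0.419 with miR-16b and 0.367 with miR-497, also past it. In dark-cutting steers these r values were 0.483, 0.385, 0.338 and 0.017 in the same order. With the 4 erythroid miRNAs miR-497 had r = -0.385 and rho = -0.542 (permutation adjusted p = 0.0159 and 0.000392). The erythroid sum was mostly miR-486, at a mean of 561 CPM over all steers. miR-451 averaged 167 CPM, miR-144 8.08 CPM and miR-363 4.38 CPM. Likewise miR-143 (24980 CPM, next 4829 CPM) led the vessel sum and miR-21-5p (3194 CPM, next 537 CPM) the fibroblast sum. Relations with these 3 sums thus mostly follow 1 miRNA each. By rank alone the erythroid list also passed with miR-15a (rho = -0.356), miR-16a (-0.306) and miR-195 (-0.397), with permutation adjusted p of 0.0205, 0.0486 and 0.0107, and the fibroblast list with miR-15a (-0.358) and miR-16b (-0.361), at 0.0205 each. miR-15b had r = 0.407 with the erythroid list, but 0.215 without the 2 farthest steers and rho = 0.211, so that relation rested on those steers. Its r with that list was 0.632 in normal steers at 600 or above and -0.214 in those below. For miR-16b the same values were 0.488 and -0.551. In human blood miR-16 and miR-15b are themselves abundant in red cells. In these bulk biopsies the cells that the members' reads came from were not tested.

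Between phenotypes, the white blood cell list was below normal for 8 of 8 miRNAs in dark-cutting steers, with a median log2 fold change of -0.15. Its summed level ran from 107 to 336 CPM in dark-cutting steers and from 109 to 466 CPM in normal steers. The erythroid list was below normal for 3 of 4 (median -0.29; 429 to 1319 CPM in dark-cutting and 329 to 3265 CPM in normal steers, or up to 1439 CPM without normal replicate 19). The vessel list had 3 of 4 below (median -0.08; 17534 to 51992 CPM in dark-cutting and 16745 to 67612 CPM in normal steers) and the fibroblast list 4 of 4 (median -0.13; 2281 to 5166 CPM in dark-cutting and 2737 to 11262 CPM in normal steers). These fold changes are under TMM, while the sums are per total count, and there the order of medians was the other way for fibroblast (4066 CPM in dark-cutting and 3597 CPM in normal steers) and erythroid miRNAs (707 CPM in dark-cutting and 673 CPM in normal steers). Of the erythroid miRNAs, miR-486 averaged 621 CPM in dark-cutting and 533 CPM in normal steers, and miR-363 4.43 and 4.36 CPM. In the same order miR-451 averaged 139 and 181 CPM and miR-144 5.56 and 9.26 CPM, with normal replicate 19 included. None of these miRNAs was called, and none had 0 counts over all steers of a phenotype. Their part in the lower miR-16a and miR-3613a of dark-cutting steers was not tested.

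Close relatives of the family were measured too. miR-424-5p, which belongs to the same family in humans, averaged 53.9 ± 18.8 CPM in dark-cutting steers and 52.8 ± 22.3 CPM in normal steers, more than miR-497 or miR-15b. It was the fourth most like non-member of miR-497 (r = 0.576). Its other arm, miR-424-3p, averaged 6.47 ± 2.73 CPM in dark-cutting steers and 5.34 ± 2.66 CPM in normal steers. miR-503-5p, which shares a transcript with miR-424 in humans, averaged 5.53 ± 2.63 CPM in dark-cutting steers and 4.43 ± 2.35 CPM in normal steers. Its log2 fold change was 0.20 ± 0.16, and that of miR-424-5p was -0.06 ± 0.10. miR-503-3p had 16 reads in all, and miR-3613b had 0 in the 78 libraries together, which allows up to 0.012 CPM (3 counts over all libraries, counting error only).

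The members also differed in how much they varied between steers of one phenotype. By edgeR's dispersion miR-3613a had a between-steer coefficient of variation of 34.3%, more than the 26.2% of the trend at its level, and 77 of 272 miRNAs varied more. miR-16b varied least, at 17.5%, with 247 of 272 miRNAs above it, and miR-15b had 18.4%, below the 28.6% of its trend. miR-497 had 28.2%, miR-195 24.2%, miR-15a 23.7% and miR-16a 22.9%.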

How the data were processed

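Small RNA libraries were made from total RNA of 78 muscle biopsies with the NEXTflex kit for small RNA (per the labels' protocols). FastQC, Trimmomatic 0.32 and DESeq2 1.34.0 are named in the submitters' processing notes. No source used here gives the aligner, read counter, genome build or miRNA reference, so neither sequences nor positions are given, and other rows sharing the members' 5′ bases could not be looked up. The deposited matrix holds raw read counts, 1 row per mature miRNA and 1 column per steer. A second deposited table holds, for each miRNA, a log2 fold change and its error, the mean normalized signal, a Wald score, and a p-value before and after adjustment, per the file headers. It names no contrast, but a DESeq2 1.42.0 refit of dark-cutting against normal steers gave its 542 Wald scores within 7.55e-08.

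The members and all lists, comparisons and named miRNAs were chosen with earlier results of these data known. Groups came from the phenotype label. No 2 libraries were near copies, with a chi-square per degree of freedom of 9.55 or more in all 3003 pairs. Of the 1030 rows, 21 were identical to an earlier row, none of them a member. The test on counts was the robust quasi-likelihood F test of edgeR 4.0.16 (R 4.3.3), with TMM scaling and Benjamini-Hochberg adjustment over all miRNAs tested, at a threshold of 0.05. Rows were kept by filterByExpr (minimum count 10) or, for the degrees, where 8 or more libraries reached the equivalent of 10 counts and all libraries together 15. Standard errors are the log2 fold change over the root of F. A fold change thus compares a miRNA with the rest of its library. Log2 CPM used TMM factors and a prior count of 2, and CPM without log is per total count. Permutation tests were two-sided with 100000 resamples. The tests were checked on simulated counts. Each comparison was repeated with DESeq2 size factors, total count scaling, the DESeq2 test, no low-count filter, the title number range, and steers left out.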

Additional observations from a re-analysis of the deposited data

Results flagged for a closer look

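Of 21 combinations of a member and a degree with 4 to 10 steers, 3 held a steer far from the others, and chance alone flags about 1 in 20. Replicate 6 of degree 1/3 had 7.79 log2 CPM of miR-15a (1033 counts), with the nearest of its group at 7.22, and it was above all 53 normal steers. Replicate 2 of degree 2/3 had 9.534 log2 CPM of miR-16a (1995 counts), the nearest being 9.07, and 8.373 of miR-16b (891 counts), the nearest being 8.01. Both values of that steer lay within the range of normal steers, with 37 and 42 of the 53 normal steers below it.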

How the results depend on the processing

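The counts of members below normal kept within 1.5 times their value under every alternative run for dark-cutting against normal steers, where they ran from 3 to 5 of 7, and for degree 1/4. Scaled by total count, 3 members were below normal at degree 1/3 and 3 at 1/2, against 5 each under TMM, and 19 correlated pairs passed in place of 11. Total count scaling shifts all log2 fold changes of a comparison together, by 0.14 at degree 1/3 and 0.18 at 1/2. Leaving out each steer gave 4 to 7 members at degree 1/2 and 3 to 6 at 2/3, the lowest without replicate 3. Of single members, miR-3613a and miR-16a stayed below normal in all alternatives for dark-cutting steers, at -0.43 to -0.26 and -0.18 to -0.08. Those alternatives did not leave out single dark-cutting steers in turn. miR-195 (to 0.07) and miR-497 (to -0.0015) crossed 0 within one number range. No member was called within dark-cutting steers or by number range under any alternative. The main fits of these comparisons called 0% of all miRNAs tested, so the lack of calls was not particular to the members. No paired analysis was possible because replicate numbers only name steers and pair none. The depth limits miR-15b and miR-497 most, at 45 and 48 counts in their lowest libraries.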
